A study of Mus musculus with 8 samples.

Results

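Furin and 7 related genes, Pcsk1, Pcsk2, Pcsk4, Pcsk5, Pcsk6, Pcsk7 and Mbtps1, encode proprotein convertases. The 8 genes were set by name, and the array carried 11 probes for them among 55681 gene probes for 37018 genes and transcripts. All probes of Furin, which had 1, were read, and for each of the others the brightest probe was used. Peritoneal macrophages of LysMCre-fur(fl/fl) mice (KO) were compared with those of wild-type littermates (WT), both on the C57BL/6 background, on 8 arrays, each of which held KO RNA in one dye and WT RNA in the other. Cells were left unstimulated or were given lipopolysaccharide (LPS, a wall component of Gram-negative bacteria) for 1, 4 or 24 h, with 2 biological replicates of each genotype at each time. KO was in Cy5 in replicate 1 and in Cy3 in replicate 2 at all 4 time points, so replicate and dye orientation cannot be told apart. The times are those in the sample titles, whereas the growth note in the labels names only 4 h of LPS for every sample. The age of the mice was not given for the arrays. LysMCre is expressed from the Lyz2 locus in macrophages and granulocytes. The cultures were adherent peritoneal cells, not sorted macrophages, and whether other cells in them kept intact fur alleles was not measured. By qRT-PCR the authors found Furin mRNA almost wholly lost in KO macrophages and neutrophils.

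Proprotein convertases are calcium-dependent serine proteases of the subtilisin type that cut inactive precursors in the secretory pathway. Furin, Pcsk5, Pcsk6 and Pcsk7 act in most tissues after pairs of basic residues, on growth factors, receptors, integrin chains and metalloproteases, whereas Pcsk1 and Pcsk2 act in the secretory granules of neuroendocrine cells and Pcsk4 in germ cells. Mbtps1, the site-1 protease, cuts after other residues and releases the membrane-bound transcription factors of the sterol and unfolded protein responses. In macrophages furin is known to be induced by inflammatory stimuli and to activate pro-TGF-β1.

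Promoter windows are shown for Furin, for Pcsk7, which rose after LPS, and for Mbtps1, which fell. Each window runs from 250 bases before to 50 bases after an annotated start, 5′ to 3′ on the gene's strand, as given by RefSeq on GRCm38.p6, where 7 of the 8 genes had at least 1 window and Furin had 2. Capitals mark the GC box GGGCGG on either strand. The first Furin window lies at chr7:80405387-80405686 and the second at chr7:80402763-80403062, both on the minus strand. The Pcsk7 window lies at chr9:45906319-45906618 on the plus strand and the Mbtps1 window at chr8:119558712-119559011 on the minus strand.
Furin, first window: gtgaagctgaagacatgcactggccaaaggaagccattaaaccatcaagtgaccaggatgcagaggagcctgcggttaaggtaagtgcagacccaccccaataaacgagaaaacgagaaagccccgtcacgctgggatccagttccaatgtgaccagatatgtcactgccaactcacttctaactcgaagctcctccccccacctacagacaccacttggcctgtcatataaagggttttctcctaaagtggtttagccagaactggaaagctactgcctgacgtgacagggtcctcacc
Furin, second window: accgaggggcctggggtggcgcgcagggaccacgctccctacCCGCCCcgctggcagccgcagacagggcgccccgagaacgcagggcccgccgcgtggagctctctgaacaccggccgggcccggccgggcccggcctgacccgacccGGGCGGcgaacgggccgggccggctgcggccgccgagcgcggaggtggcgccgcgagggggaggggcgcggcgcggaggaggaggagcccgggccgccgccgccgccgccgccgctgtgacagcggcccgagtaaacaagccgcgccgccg
Pcsk7: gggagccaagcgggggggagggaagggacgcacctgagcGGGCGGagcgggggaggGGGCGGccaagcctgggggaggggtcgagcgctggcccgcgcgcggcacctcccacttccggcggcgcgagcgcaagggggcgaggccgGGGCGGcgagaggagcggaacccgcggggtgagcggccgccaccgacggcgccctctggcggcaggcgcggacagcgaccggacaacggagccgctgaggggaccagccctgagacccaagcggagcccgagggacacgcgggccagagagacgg
Mbtps1: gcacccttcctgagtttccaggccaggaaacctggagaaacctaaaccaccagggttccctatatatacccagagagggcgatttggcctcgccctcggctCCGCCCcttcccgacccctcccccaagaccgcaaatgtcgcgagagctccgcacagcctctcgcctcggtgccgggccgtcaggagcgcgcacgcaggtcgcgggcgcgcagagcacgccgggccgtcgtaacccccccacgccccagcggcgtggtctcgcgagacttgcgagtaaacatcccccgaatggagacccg

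Both Furin windows lacked the consensus of NF-κB, AP-1 (TGANTCA), STAT (TTCNNNGAA) and CRE (TGACGTCA), and so did the Pcsk7 and Mbtps1 windows. Of the windows not printed, those of Pcsk2 and Pcsk5 held 1 NF-κB match each, that of Pcsk1 held 1 CRE and that of Pcsk6 held none of these. The second Furin window, with a GC content of 82.3%, held 2 GC boxes and the first, with 51.3%, held none. The Pcsk7 window held 3 and the Mbtps1 window 1. Of all 32851 windows of this length, 35.7% held a GC box, 8.46% the NF-κB consensus, 7.81% the AP-1 motif, 8.3% the STAT motif and 1.79% the CRE. The motifs do not overlap one another in the 4 printed windows, and a match is a string of letters, not a measured site.

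The labels were first checked on the targeted gene. The single Furin probe (A_55_P2064557) was well above background in all 16 channels and was never saturated. Its scanner signal, the median over the pixels of the spot, ranged from 1006 to 2510 in Cy3 over a local background of 21 to 24, and from 2625 to 5602 in Cy5 over a local background of 138 to 150. The position of the probe on the transcript is not given in the sources used here. Whether it lies in the part of the gene removed by Cre is therefore unknown.

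After background correction and normalization, the Furin intensity on the log2 scale, where a step of 1 is a 2-fold difference, was 11.56 and 11.48 in the unstimulated WT replicates 1 and 2 and 10.98 and 10.63 in the KO ones. After 1 h of LPS it was 11.27 and 11.24 in WT and 10.71 and 10.69 in KO. After 24 h it was 11.18 and 11.06 in WT and 10.59 and 10.37 in KO. At these 3 times both KO channels were below both WT channels. At 4 h the channels labelled WT read 12.02 and 11.64 and those labelled KO read 12.02 and 11.97, so that the genotypes overlapped and the KO mean was the higher.

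**Figure D1:**
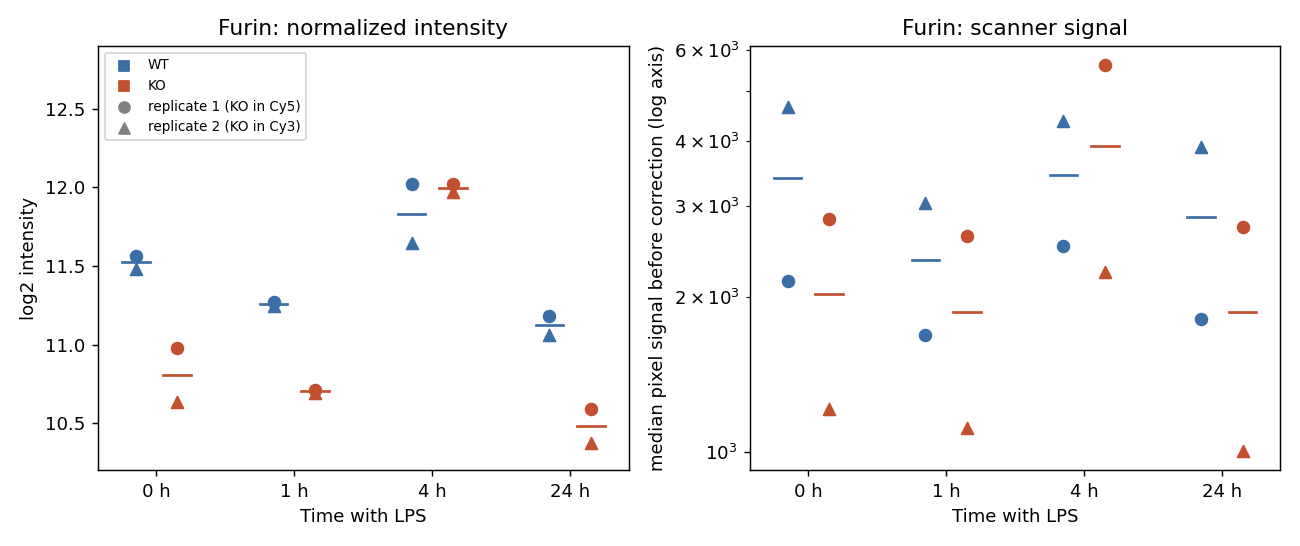
Furin probe in the 16 channels. Left, normalized log2 intensity. Right, scanner signal before any correction on a log axis. Time with LPS runs along the x axis, points are single channels, bars are means of 2 replicates, colours are genotypes and symbols replicates. KO lies below WT at 0, 1 and 24 h but not at 4 h in the normalized values, and in the scanner signals the dye moves each channel as well.

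Expressed as mean ± SD of the log2 intensity (n = 2), the order of the 8 conditions ran from KO at 4 h (11.997 ± 0.035) through WT at 4 h (11.83 ± 0.27), unstimulated WT (11.52 ± 0.059), WT at 1 h (11.26 ± 0.021), WT at 24 h (11.12 ± 0.084), unstimulated KO (10.81 ± 0.24) and KO at 1 h (10.702 ± 0.016) to KO at 24 h (10.48 ± 0.15). Of neighbours in this order, KO and WT at 4 h overlapped, as did unstimulated KO and KO at 1 h. The replicates of the other neighbours did not overlap.

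On each array the KO/WT ratio compares both genotypes within a spot. The log2 ratio of Furin was -0.59 and -0.85 in the unstimulated replicates 1 and 2. After 1 h of LPS it was -0.56 and -0.55, after 4 h 0.0012 and 0.33, and after 24 h -0.59 and -0.69. Furin was thus lower in KO on 6 of 8 arrays, and the exceptions were both arrays of 4 h. The mean over the 4 time points was -0.44 ± 0.055 (SE), and Furin fell in KO at an adjusted p of 0.0220 in limma (Benjamini-Hochberg over 36947 genes and transcripts). Of all genes tested, 0.566% were called in this mean. The call was lost when any single array was left out, except replicate 1 of 24 h (limma adjusted p 0.0444), with adjusted p values up to 0.0914 and the ratio between -0.40 and -0.48. It was also lost with the processed signals of the scanner software (limma adjusted p 0.189).

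At the single time points the Furin ratio was -0.72 unstimulated (95% confidence interval -0.97 to -0.47), which is a linear KO/WT ratio of 0.608. It was -0.56 at 1 h (-0.81 to -0.30), 0.16 at 4 h (-0.09 to 0.42) and -0.64 at 24 h (-0.89 to -0.39). None passed limma's adjusted threshold, with adjusted p values of 0.163, 0.458, 1.00 and 0.185. Few genes did: 0% of genes were called unstimulated and 0% at 1 h, although 2135 and 2025 had an unadjusted p under 0.05, and 0.0135% were called at 4 h and 0.0244% at 24 h. With the replicate number as a block, which takes out the dye orientation, limma's adjusted p for Furin became 0.0123 unstimulated and 0.0477, 0.725 and 0.0227 after 1, 4 and 24 h. Under this block 1.06%, 0.574%, 0.566% and 0.585% of genes were called at the 4 times, and 5.99% in the mean.

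The change of the Furin KO/WT ratio from unstimulated to 4 h of LPS was 0.88 ± 0.16 (SE), with 0.59 in replicate 1 and 1.18 in replicate 2. It did not pass the test over all genes (limma adjusted p 0.815, and 0.102 with the replicate block), nor did any other gene, since 0% were called for the change at 4 h with 1071 at an unadjusted p under 0.05 (0.0325% with the block). Of 36947 genes and transcripts, 33 had a larger rise of the ratio at 4 h. The ratio moved by 0.16 from unstimulated to 1 h and by 0.08 from unstimulated to 24 h, and for these changes too 0% of genes were called, with 512 and 1231 at an unadjusted p under 0.05.

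Lyz2, the lysozyme gene that carries the Cre insertion, was read beside Furin as a second check of the labels. Its log2 KO/WT ratio was below 0 on all 8 arrays. The mean ratios were -0.87 unstimulated and -0.93, -1.09 and -1.73 after 1, 4 and 24 h, and the mean over the time points was -1.16 ± 0.054 (SE, limma adjusted p 0.000342). At 4 h, where Furin was not lower, Lyz2 was called lower in KO (limma adjusted p 0.0399). The near-identical lysozyme gene Lyz1 may share signal with this probe.

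Markers of other cells that could be in the cultures were read for the same arrays. All 5 measured macrophage markers were well above background in all 16 channels, and their mean log2 KO/WT ratio lay between -0.35 and 0.09. The 3 markers of large peritoneal macrophages, above background throughout, stood at 0.28 and 0.15 at 4 h, between -0.12 and 0.03 on the unstimulated and 1 h arrays and at 0.16 and -0.05 at 24 h. The 4 measured B cell markers, also above background throughout, were higher in KO by 0.10 to 0.67 on the 6 arrays of 0, 1 and 24 h and lower at 4 h, by -0.24 and -0.16. The 7 mesothelial and fibroblast markers turned at 4 h in the same way, from 0.05 to 0.20 on the other arrays to -0.20 and -0.14, but only 1 of the 7 was above background in all channels. Mast cell markers, 5 of 5 above background in all channels, ranged from -0.16 to 0.18 in replicate 1 and from 0.41 to 1.05 in replicate 2. Steroid-producing cell markers (2 of 4) ranged from -1.71 to -1.06 in replicate 1 and from 0.55 to 0.97 in replicate 2. Replicate and dye orientation cannot be told apart in these values. T and NK cell markers (2 of 4 above background in all channels) ranged from -0.37 to 0.52, neutrophil markers (1 of 4, with 3 in none) from -0.34 to 0.36 and endothelial markers (2 of 3) from -0.11 to 0.15. The summed intensity of the B cell markers ran from 27036 to 104434 in KO channels and from 35465 to 83672 in WT channels. In these bulk samples fewer cells of a type and less RNA per cell cannot be told apart, and the part of these cells in the Furin values was not tested.

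**Figure D2:**
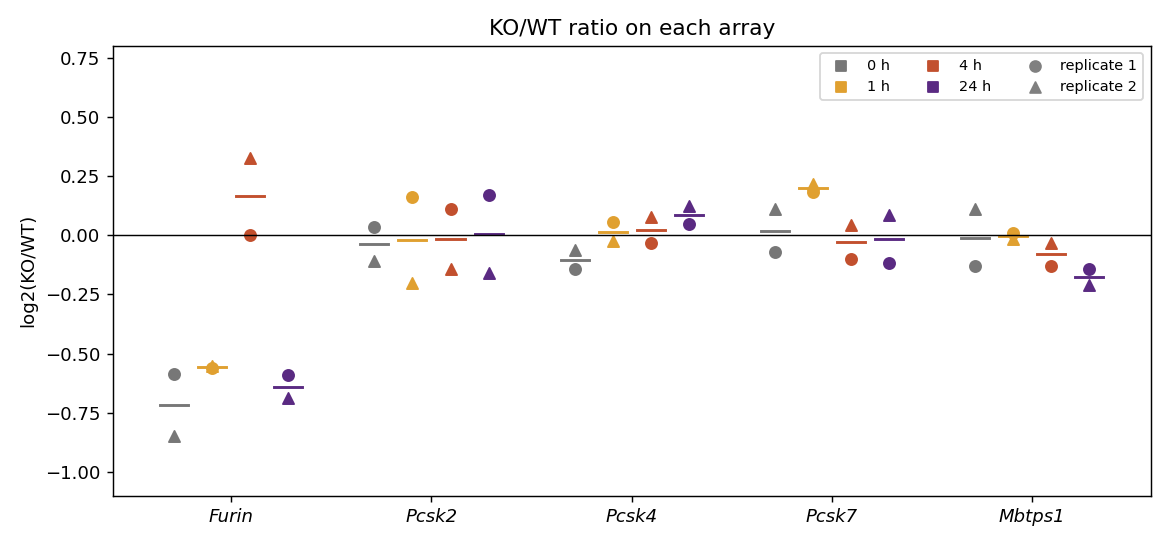
Log2 KO/WT ratio of the 5 convertases that were well above background in all 16 channels, on each of the 8 arrays. Points are arrays, bars are means of the 2 arrays of a time point, colours are times and symbols replicates. The 6 Furin points of 0, 1 and 24 h lie between -0.85 and -0.55, and all points of the other genes lie between -0.21 and 0.22.

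Of the other convertases, Pcsk7, Pcsk4, Pcsk2 and Mbtps1 were well above background in all 16 channels. Pcsk7, the most widely expressed of the family beside furin, had a ratio of spot signal to local background of 5.22 to 27.6, Pcsk4 of 1.46 to 4.65 and Pcsk2 of 1.57 to 3.45, so that the last pair sat close to the background. For Mbtps1 it was 46.5 to 302. Pcsk1 and Pcsk6 were not well above background in any channel. Pcsk5 was so in 1 channel, the WT one of replicate 1 at 24 h, which read a Cy3 signal of 75.5 over a background of 19. No fold is given for these 3 genes.

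**Figure D3:**
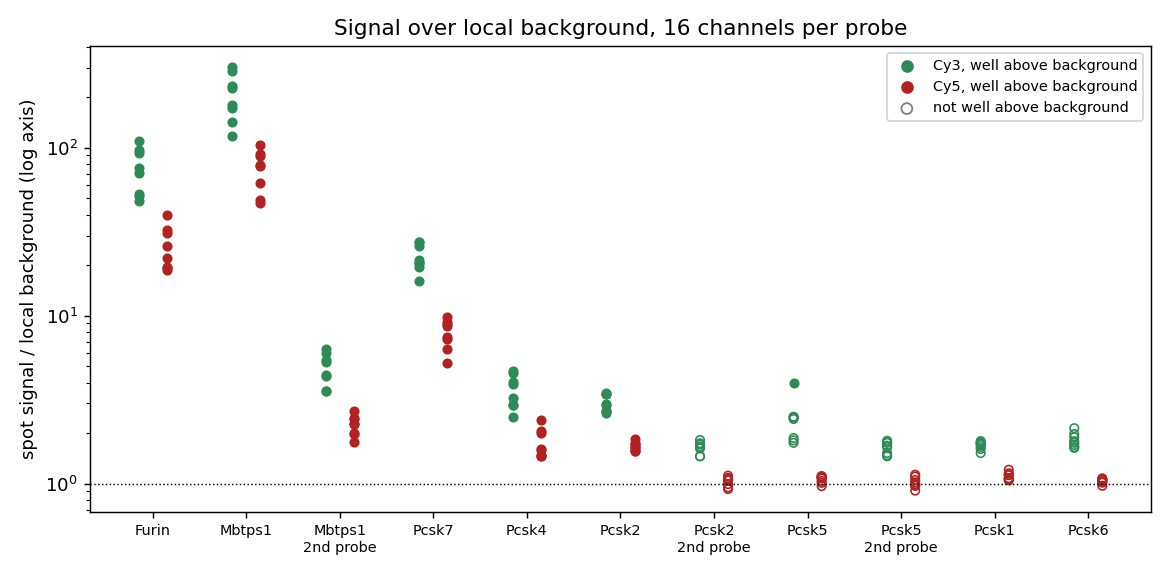
Ratio of spot signal to local background for the 11 convertase probes in 16 channels each, on a log axis. Filled points are well above background by the scanner software and open points are not, and the dotted line marks equality. Cy3 points lie above Cy5 points for every probe, since the local background was higher in Cy5. Probes should not be compared with each other.

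None of these convertases differed between genotypes past the threshold at any time point or in the mean. The mean log2 KO/WT ratio over the time points was 0.04 for Pcsk7 (95% confidence interval -0.07 to 0.16), 0.01 for Pcsk4 (-0.09 to 0.11), -0.02 for Pcsk2 (-0.16 to 0.13) and -0.07 for Mbtps1 (-0.18 to 0.04), with limma adjusted p values of 0.741 to 0.995. The largest ratio at a single time was that of Pcsk7 at 1 h, 0.18 and 0.22 on the 2 arrays (limma adjusted p 0.959). No convertase was called higher in the mean, and Furin was the 1 of 8 called lower.

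The response to LPS was read within each genotype against its own unstimulated cells, from the separate channels. In the WT comparisons 8.51%, 34.7% and 30.4% of genes were called after 1, 4 and 24 h, and in the KO comparisons 7.46%, 36% and 28.6%. The shares with the replicate block were 11.9%, 39.1% and 34.6% in WT and 11.5%, 40.2% and 33.2% in KO. No convertase was called at 1 h in either genotype. At 4 h Pcsk7 and Pcsk4 rose and Mbtps1 fell in WT, and Furin, Pcsk7 and Pcsk4 rose and Mbtps1 fell in KO. At 24 h Furin and Mbtps1 fell in WT and Mbtps1 fell in KO. The WT and KO comparisons were hybridised on the same arrays, and the 3 times of a genotype share its unstimulated samples.

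In KO cells Furin rose at 4 h by 1.19 ± 0.14 (log2, SE), with 1.04 in replicate 1 and 1.34 in replicate 2 (limma adjusted p 6.8e-06), a 2.28-fold change. In WT cells the value was 0.31 ± 0.14, with 0.46 and 0.16, and did not pass (limma adjusted p 0.0996, and 0.0449 with the replicate block). Without quantile normalization the WT value was 0.08. Without replicate 1 of 4 h it was 0.12, and without replicate 2 of 4 h it was 0.498 and passed (limma adjusted p 0.0224). The test of the difference between these responses is the change of the KO/WT ratio given above, which did not pass.

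At 24 h Furin fell in WT by 0.40 on the log2 scale, to 0.757 of the unstimulated level, with -0.38 and -0.42 in the replicates (limma adjusted p 0.0373). This call was lost when an array of the unstimulated, 1 h or 24 h cells was left out (limma adjusted p 0.0612 to 0.196) and without quantile normalization (-0.21, limma adjusted p 0.393). In KO the 24 h value was -0.32, with -0.39 and -0.26, and did not pass (limma adjusted p 0.0990, and 0.0430 with the replicate block), but did so without unstimulated replicate 2 (-0.494, limma adjusted p 0.0384). At 1 h Furin stood at -0.27 in WT and -0.10 in KO (limma adjusted p 0.339 and 0.809).

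Pcsk7, which acts late in the secretory pathway and at the cell surface, read 9.35 and 9.26 in unstimulated WT and 10.27 and 9.95 in WT at 4 h. In KO it read 9.28 and 9.37 unstimulated and 10.17 and 9.99 at 4 h. All 4 channels of 4 h were above all channels of the other times. The log2 rise was 0.81 ± 0.11 (SE) in WT (limma adjusted p 5.6e-05) and 0.76 ± 0.11 in KO (limma adjusted p 1.0e-04). Without quantile normalization these values were 0.38 and 0.32, and the second no longer passed (limma adjusted p 0.0968). At 24 h Pcsk7 stood at 0.30 in WT and 0.26 in KO (limma adjusted p 0.0702 and 0.118; with the replicate block the WT value passed at 0.0284).

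Pcsk4, best known from sperm, read 7.14 and 7.23 in unstimulated WT and 7.63 and 7.86 at 4 h, and 7.00 and 7.17 in unstimulated KO and 7.60 and 7.94 at 4 h. Its log2 rise at 4 h was 0.56 ± 0.12 (SE) in WT (limma adjusted p 0.0018) and 0.69 ± 0.12 in KO (limma adjusted p 3.5e-04). Its scanner signal at 4 h was 103 and 121 in the Cy3 channels over backgrounds of 22.5 and 26, so this rise rests on dim spots. Without quantile normalization it was 0.23 and 0.36 and no longer passed (limma adjusted p 0.265 and 0.0648). At 1 h Pcsk4 stood at -0.41 in WT, just outside the threshold (limma adjusted p 0.0533, and 0.0209 with the replicate block), and at -0.29 in KO. The WT value was -1.22 with the processed signals (limma adjusted p 0.0133), and it also passed without either 4 h array (limma adjusted p 0.0214 for each). At 24 h it stood at -0.32 in WT (limma adjusted p 0.0603, and 0.0288 with the replicate block) and at -0.13 in KO.

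Pcsk2, the convertase of neuroendocrine granules, was not called. It stood at 0.28 in WT and 0.30 in KO at 4 h on the log2 scale (limma adjusted p 0.186 and 0.151) and between -0.04 and 0.10 at 1 h and 24 h. The KO value at 4 h was 0.105 without replicate 1 of 4 h and 0.488 without replicate 2, where it passed (limma adjusted p 0.0404). Without quantile normalization the 4 h values were 0.032 in WT and 0.07 in KO, with the mean of both probes 0.127 and 0.143, and with the processed signals 0.593 and 0.658, none of them past the threshold. Its second probe was not well above background in any channel.

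Mbtps1 moved the other way from Pcsk7. It read 13.48 and 13.33 in unstimulated WT and 12.36 and 12.35 at 4 h, and 13.35 and 13.44 in unstimulated KO and 12.24 and 12.32 at 4 h. Its levels at 24 h were 12.43 and 12.53 in WT and 12.29 and 12.32 in KO. Every channel of 4 and 24 h was below every unstimulated and 1 h channel. The log2 change at 4 h was -1.045 ± 0.090 (SE) in WT and -1.12 ± 0.090 in KO (limma adjusted p 4.6e-07 and 2.5e-07). At 24 h it was -0.92 in WT and -1.09 in KO (limma adjusted p 2.5e-06 and 5.4e-07). The second, dimmer Mbtps1 probe gave -0.22 and -0.39 at 4 h and -0.21 and -0.43 at 24 h in WT and KO, and passed in KO only (limma adjusted p 0.0179 and 0.0136). Its spots were 1.76 to 6.31 times the local background.

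**Figure D4:**
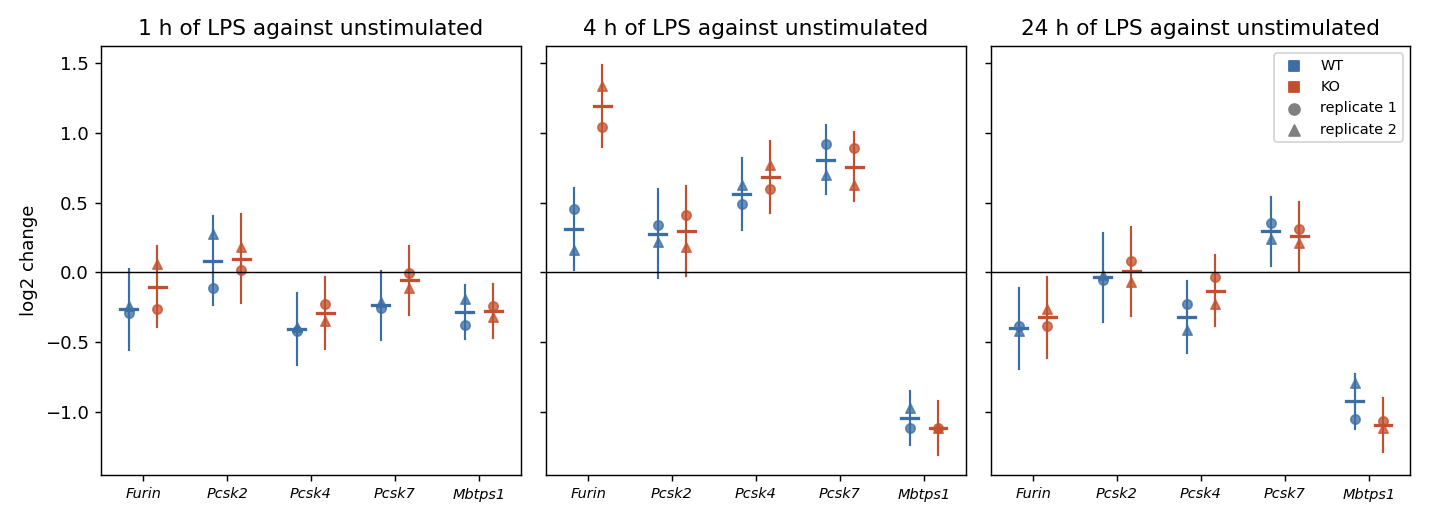
Log2 change of the 5 detected convertases after 1, 4 and 24 h of LPS against unstimulated cells of the same genotype. Long bars are means, vertical lines 95% confidence intervals from the separate-channel fit, and points the replicates. At 4 h Pcsk7 and Pcsk4 lie above 0 in both genotypes and Mbtps1 below, and the KO value of Furin (1.19) lies above that of WT (0.31).

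Genes whose intensity over the 16 channels was most like that of Furin, among 11010 named genes well above background in all of them, were Zmynd15 (Pearson r 0.922), Tmem87b (0.922), Tnip2 (0.910), Adap2 (0.907) and Wwox (0.899). The log2 KO/WT ratio of Zmynd15 was -0.62 unstimulated and -0.20 at 4 h, and that of Adap2 -0.37 and 0.17. It was -0.28 and -0.08 for Tmem87b, -0.25 and 0 for Tnip2 and -0.07 and -0.02 for Wwox. Pcsk7 was most like Rassf1 (0.980), Rnf135 (0.977), Rnf31 (0.975), Trim14 (0.975) and Crkl (0.970), Pcsk4 most like Snapc4, BC003965 and Zfp566 (each at least 0.974), and Pcsk2 most like Camsap3 (0.893) and Pygm (0.886). Mbtps1 was most like Tmem273 (0.992), Tmem37 (0.990), Tprgl (0.988) and Qdpr (0.988). The 16 channels share arrays, dyes and LPS times, so these correlations are descriptions only.

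Genes that act on or with the convertases were read as lists, and the counts below stand beside the shares of all genes called in either direction (34.7% in WT and 36% in KO at 4 h, 30.4% and 28.6% at 24 h, 8.51% and 7.46% at 1 h). Most genes of each list were well above background in all channels, which many of all genes were not. With only probes well above background on 2 arrays tested, 13097 of 22151 genes were called in WT and 13464 in KO at 4 h. At 24 h 11684 and 11054 of these 22151 were called, and at 1 h 3446 and 3113. Inhibitors and chaperones were Pcsk1n and Scg5, the binding proteins of Pcsk1 and Pcsk2, Serpinb8, a serpin that binds furin, and Gbp2 and Gbp5, guanylate-binding proteins that lower furin activity. At 4 h 3 of 5 rose and 1 fell in WT, and 3 rose and 0 fell in KO (1 with the replicate block). The median log2 change was 1.62 in WT and 1.90 in KO, beside -0.0009 and 0.0014 for all genes. Gbp5 rose by 6.40 in WT and 6.13 in KO, Gbp2 by 3.75 and 3.56 and Serpinb8 by 1.62 and 1.90 (limma adjusted p at most 0.0034). The risers are interferon-inducible guanylate-binding proteins and a serpin, whereas Pcsk1n, the inhibitor of Pcsk1, stood at -0.56 in WT at 4 h (limma adjusted p 0.0254), a call lost with the processed signals, without replicate 2 of 4 h or without unstimulated replicate 1. At 24 h 3 rose and 1 fell in both genotypes, with Pcsk1n at -1.80 in WT and -1.996 in KO. At 1 h 2 rose in WT and 1 in KO, with Gbp5 at 3.62 and 2.91, and the WT count was 1 without unstimulated replicate 1 or either 1 h array.

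In KO against WT no gene of this list was called. With the replicate block Gbp5 (1.07) and Gbp2 (0.64) were higher in KO at 24 h (limma adjusted p 0.0068 and 0.0086), where without it the adjusted p was 0.243 and 0.106. In the mean over the time points they stood at 0.38 and 0.24 and passed with the block (limma adjusted p 0.0107 and 0.0095), which called 5.99% of all genes there.

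Of 5 enzymes that trim or amidate the cut peptides, 1 rose and 1 fell at 4 h in WT and 1 rose and 2 fell in KO, beside 34.7% and 36% of all genes called. The medians were -0.16 and -0.04. Cpd, a carboxypeptidase of the trans-Golgi network that removes the basic residues left by furin, rose at 4 h by 2.06 in WT and 2.11 in KO and at 24 h by 2.43 and 1.84. Cpm, a carboxypeptidase of the cell surface, stood at -1.56 and -2.08 at 4 h, and Pam, the amidating enzyme, at -0.71 and -0.69 at 24 h. All these values passed limma's test. At 24 h 1 rose and 1 fell in each genotype, beside 30.4% and 28.6% of all genes, and at 1 h none was called. In KO 1 fell at 4 h when either 4 h array or unstimulated replicate 1 was left out, and in WT 2 fell without replicate 1 of 4 h. At 24 h 2 fell in KO without either 1 h array, and with the replicate block 2 fell in WT and 3 in KO, beside 34.6% and 33.2% of all genes. In KO against WT, Cpe was called in the mean with the replicate block (-0.59, limma adjusted p 0.0032, beside 5.99% of all genes) but not without it (limma adjusted p 0.946).

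Of 6 genes that sort furin between the trans-Golgi network, endosomes and the cell surface, 1 rose and 3 fell at 4 h in WT and 0 rose and 3 fell in KO, beside 34.7% and 36% of all genes called, with medians of -0.35 and -0.38. Those that fell were the AP-1 adaptor subunits Ap1s1 (-1.08 in WT and -0.99 in KO) and Ap1m1 (-0.53 and -0.50) and the actin cross-linker Flna (-0.51 in both). At 24 h Flna fell in both genotypes, by 0.56 in WT and 0.51 in KO on the log2 scale, and Ap1g1, another subunit of that adaptor, rose in WT (0.36, limma adjusted p 0.0174), as it had at 4 h (0.31). The Ap1g1 call at 4 h was lost without quantile normalization, without replicate 2 of 4 h and without either unstimulated array, and that at 24 h without any 1 of the unstimulated and 24 h arrays. No fall was called at 24 h in either genotype without quantile normalization or without either 24 h array, and none in WT without unstimulated replicate 2. With the replicate block 3 fell at 24 h in WT and 2 in KO, beside 34.6% and 33.2% of all genes, and 2 fell in KO without either 1 h array. In KO 1 rose at 4 h without replicate 2 of 4 h. At 1 h Pacs2, a sorting connector, fell in KO cells against unstimulated KO cells (-0.45, limma adjusted p 0.0227), and no other gene of this list was called. The Pacs2 call was lost without unstimulated replicate 1, without replicate 2 of 1 h and with the processed signals, and 2 genes of the list fell at 1 h in KO without unstimulated replicate 2.

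Known substrates of furin and its relatives were the largest list, with 19 of 20 genes measured. At 4 h 6 rose and 8 fell in WT, and 6 rose and 7 fell in KO, beside 34.7% and 36% of all genes called. At 24 h 3 rose and 10 fell in WT, and 2 rose and 12 fell in KO, and the median log2 change was -0.58 and -0.81, beside -0.0155 and -0.015 for all genes, of which 30.4% and 28.6% were called. Of genes with probes well above background on 2 arrays, 11684 of 22151 were called in WT and 11054 in KO at 24 h. At 1 h 2 rose (Itga5 by 1.82 and 1.78, Mmp14 by 0.52 in both) and 1 fell in each genotype, the growth factor chain Pdgfa (-1.02 and -1.13, limma adjusted p 0.0447 and 0.0297). With the replicate block 3 fell at 1 h in WT and 5 in KO, beside 11.9% and 11.5% of all genes. In WT 1 rose at 1 h without either unstimulated array, replicate 1 of 1 h or either 24 h array, and in KO without any 1 unstimulated, 1 h or 24 h array. In WT 2 fell at 1 h without either 4 h array. No fall was called at 1 h in WT without either unstimulated array or replicate 2 of 1 h, nor in KO without unstimulated replicate 1 or either 1 h array.

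Substrates that rose included Mmp14, a membrane-bound metalloprotease, by 1.61 in WT and 2.15 in KO at 4 h and by 1.96 and 2.36 at 24 h. The integrin chains Itga5 (2.01 and 2.14 at 4 h) and Itgav (1.87 and 1.44 at 4 h) rose as well, and so did the receptors Met, Notch1 and Notch2 at 4 h, by 0.70 to 1.09 in WT. All these passed limma's test.

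The sorting receptor Sort1 had the lowest value of the list at 24 h, with -2.83 in WT and -3.15 in KO at 4 h and -4.90 and -4.69 at 24 h. The integrin chain Itga6 stood at -2.92 and -3.23 at 4 h. Lrp1, an endocytic receptor, stood at -1.89 and -2.42 and the cytokine gene Tnfsf13b at -2.51 and -2.60 at 24 h. Tnfsf13b was well above background in 1 of 2 channels of each genotype at 24 h. The IGF receptor Igf1r stood at -1.66 in WT at 24 h and the insulin receptor Insr at -1.35. Insr was well above background in 11 of 16 channels and in none of 4 h. Pdgfa stood at -1.20 in KO at 24 h. Of the sheddases, Adam10 stood at -1.17 and -1.44 at 4 h, Adam15 at -2.24 and -2.20 at 4 h and Adam17, which releases TNF, at -0.58 and -0.48 at 24 h. These falls passed limma's test in the genotypes given.

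Tgfb1, which encodes the furin substrate pro-TGF-β1, was not called in WT (-0.47 at 24 h) and fell in KO at 24 h (-0.81, limma adjusted p 0.0038). Its log2 KO/WT ratio was 0.00 unstimulated and -0.05, 0.31 and -0.33 after 1, 4 and 24 h, and none of these passed (limma adjusted p 1.00 at each time).

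**Figure D5:**
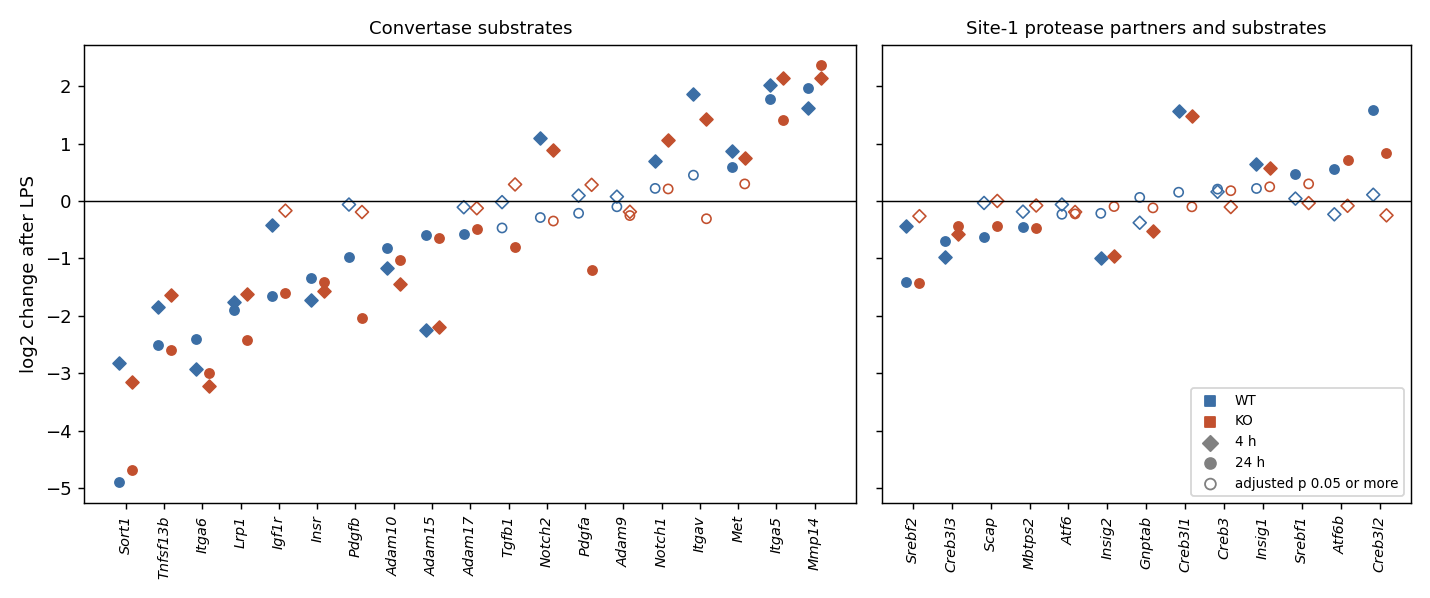
Log2 change after 4 h (diamonds) and 24 h (circles) of LPS for 19 convertase substrates and 13 partners and substrates of the site-1 protease, in WT and KO, sorted by the WT value at 24 h. Filled symbols passed limma's adjusted threshold of 0.05. At 24 h Sort1 is lowest and Mmp14 highest among the substrates in both genotypes, and Srebf2 is lowest among the site-1 protease genes.

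In KO against WT, 1 of the 19 substrates was called at 24 h and 1 in the mean over the time points, and 0 at the other times, beside 0.0244% and 0.566% of all genes at 24 h and in the mean. Pdgfb, a growth factor chain, was lower in KO at 24 h, with a log2 ratio of -0.85 and -0.86 on the 2 arrays (limma adjusted p 0.0446), and no longer passed when any 1 of the 8 arrays was left out, with the processed signals of the software, with probes well above background on 2 arrays, with the mean of all probes or by the methods' t-test. It stood at -0.98 in WT and -2.03 in KO after 24 h of LPS. Mmp14 was lower in the mean, by 0.40 on the log2 scale (-0.40 ± 0.061 SE, limma adjusted p 0.0374), a call that was lost when any 1 array was left out, with Aquantile or loess alone, with the processed signals and with the deposited ratios. Its ratio was -0.63 unstimulated and -0.63, -0.10 and -0.23 after 1, 4 and 24 h. With the replicate block, which called 0.566% to 1.06% of all genes at single times, 1 substrate was called lower at each time, Mmp14 unstimulated and at 1 h (limma adjusted p 0.0186 and 0.0290), Sort1 at 4 h (-0.705, limma adjusted p 0.0123) and Pdgfb at 24 h (limma adjusted p 0.00274). In the mean, where it called 5.99% of all genes, the block called Mmp14 and Sort1 (-0.44) lower and Notch2 (0.24) higher (limma adjusted p 0.0016, 0.000759 and 0.0324). The change of the Pdgfb ratio at 24 h, -1.05, also passed with the block (limma adjusted p 0.0097, beside 0.211% of all genes), against 0.247 without it. The median ratio of the list was -0.02 in the mean, beside 0.0004 for all genes.

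The last list held partners and substrates of the site-1 protease, among them Mbtps2, the protease that acts after Mbtps1. Of 13 genes, 2 rose and 3 fell at 4 h in each genotype, beside 34.7% and 36% of all genes called. Without quantile normalization 1 rose and 7 fell in WT and 1 rose and 8 fell in KO, and without replicate 1 of 4 h 1 rose and 5 fell in KO. In WT 1 rose at 4 h without unstimulated replicate 2. At 24 h 3 rose and 4 fell in WT and 2 rose and 4 fell in KO, beside 30.4% and 28.6% of all genes, and 2 fell in KO without unstimulated replicate 1. At 1 h 2 rose and 1 fell in WT and 1 rose and 1 fell in KO. Creb3l3, the gene that fell at 1 h and 1 of those that fell at 4 and 24 h, was well above background in 6 of 16 channels and gets no fold. In KO 2 rose and 2 fell at 1 h with the replicate block, beside 11.5% of all genes, and 2 rose there without either 4 h array. The fall at 1 h was lost in WT without replicate 1 of 1 h, and in KO without any 1 array except unstimulated replicate 2. The medians at 24 h were 0.06 in WT and -0.10 in KO. Srebf2, the sterol-regulated factor, stood at -1.41 and -1.43 at 24 h, its escort Scap at -0.62 and -0.44 and Mbtps2 at -0.46 and -0.48, all past the threshold. Insig1, which holds the escort in the endoplasmic reticulum, rose at 1 h by 1.76 in WT and 1.13 in KO and at 4 h by 0.64 and 0.57. Insig2 stood at -0.99 and -0.96 at 4 h, and the membrane-bound factors Creb3l1 (1.57 and 1.49 at 4 h) and Creb3l2 (1.59 and 0.84 at 24 h) rose. Atf6b, a factor of the unfolded protein response, rose at 24 h by 0.56 and 0.71. Gnptab, whose product Mbtps1 cuts to make the enzyme that tags lysosomal proteins, fell at 4 h in KO (-0.53, limma adjusted p 0.0197) and stood at -0.38 in WT. No gene of this list was called between the genotypes.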

How the data were processed

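RNA of KO and WT peritoneal macrophages was co-hybridised by the authors to 8 Agilent mouse arrays and read with Feature Extraction 10.7.3, per the file headers. The deposited intensity values are median pixel signals of spot and local background in each dye, and the deposited log2 values are the authors' normalized Cy5/Cy3 ratios, used only as an alternative. All 8 arrays lay on 1 slide with 1 scan. Of gene probes, 45.1% to 51.3% were well above background in Cy3 and 43.8% to 48% in Cy5; the number of arrays limits the precision.

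Intensities were background-corrected (normexp, offset 50), loess-normalized within arrays and quantile-normalized between arrays in limma 3.58.1 (R 4.3.3), and control spots were left out. Probes were named through RefSeq accessions (27509 of 55681 probes), and the brightest probe stood for a gene. Genes whose log2 intensity averaged under 6 were not tested. KO/WT ratios were fitted with 1 coefficient per time point (36947 genes and transcripts), and LPS responses with a separate-channel model (36927; within-spot correlation 0.106). P-values were adjusted by Benjamini-Hochberg over all genes, with a threshold of 0.05. Same-numbered arrays deviated together (Pearson r 0.475 to 0.679 over 6 pairs of time points). They also share a dye orientation, so these values cannot show whether the numbers pair the samples. The block takes out replicate and dye orientation together. Named genes were the convertases, called members of the lists and, for each convertase above background in all channels, genes among the 5 of most similar pattern, of which 1 is not reported here. The members and lists were chosen with earlier results of these data known. Scripts were tested on simulated data. LPS was given at 1 µg/ml per the methods.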

Additional observations from a re-analysis of the deposited data

Results flagged for a closer look

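The KO/WT ratio of Furin lay on the other side of 0 at 4 h of LPS than at the other times. It was below 0 on both unstimulated arrays (-0.59 and -0.85), both arrays of 1 h (-0.56 and -0.55) and both arrays of 24 h (-0.59 and -0.69), and above 0 on both arrays of 4 h (0.0012 and 0.33). The difference of the log2 ratios was 0.88 for 4 h minus unstimulated, 0.72 for 4 h minus 1 h and -0.80 for 24 h minus 4 h, with limma adjusted p values of 0.815, 1.00 and 0.54, and of 0.102, 0.253 and 0.0761 with the replicate block. limma called none of 36947 genes in these differences, with 1071, 1080 and 1095 genes at an unadjusted p under 0.05.

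The KO/WT ratio of Pcsk4 was below 0 on both unstimulated arrays (-0.14 and -0.06) and above 0 on both arrays of 24 h (0.05 and 0.13). The difference of 0.19 did not pass (limma adjusted p 1.00, and 0.867 with the replicate block).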

How the results depend on the processing

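With the replicate block the Furin ratio kept its value and passed unstimulated (-0.717), at 1 h (-0.555) and at 24 h (-0.639), as did its response at 4 h in WT (0.31) and at 24 h in KO (-0.322). The mean ratio no longer passed with the processed signals of the software (-0.485), and the WT response at 24 h no longer passed with Aquantile (-0.383), loess alone (-0.212) or the processed signals (-0.45). The other convertases called in WT at 1 h, 0 in the reported fit, were 1 with the block, 2 with the processed signals, 1 with probes well above background on 2 arrays and 1 with the mean of all probes, and in KO at 1 h 1 with the processed signals. In WT at 24 h they were 3 with the block, 2 with loess alone and 2 with probes well above background on 2 arrays, against 1, and in KO at 4 h 1 with loess alone, against 3. Without quantile normalization the share of higher calls at 4 h was 27.7% in WT, against 44.5%, and 27.9% in KO, against 45.1%. The causes were not tested.

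No called value changed sign. Values that were not called and did so were the mean ratio of Pcsk4 (-0.00234 with Aquantile and loess alone, -0.00274 with the deposited ratios), the change of Mbtps1 at 1 h (-0.025 with Aquantile and loess alone, -0.016 with processed signals, -0.062 with the mean of probes and -0.026 with the deposited ratios) and its unstimulated ratio (0.051 with the mean of probes). For Pcsk2 they were the KO response at 24 h (-0.042 with loess alone, -0.021 without background correction, -0.21 with processed signals), the ratio at 24 h (-0.00237 without background correction, -0.127 with processed signals), the change at 1 h (-0.029 without background correction, -0.037 with processed signals) and the change at 24 h (-0.036 with processed signals). For Pcsk7 with processed signals they were the unstimulated ratio (-0.02), the ratio at 24 h (0.00132), its change (0.021) and the KO response at 1 h (0.00234).

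With each array left out in turn, the Furin mean ratio ran from -0.478 to -0.396 (limma adjusted p 0.0444 to 0.0914), its response from 0.121 to 0.498 at 4 h in WT, -0.46 to -0.341 at 24 h in WT, -0.275 to 0.068 at 1 h in KO and -0.494 to -0.151 at 24 h in KO, and the change of its ratio at 24 h from -0.052 to 0.208. The number of other convertases called ran from 0 to 1 in WT at 1 h, from 1 to 3 in WT at 24 h and from 3 to 4 in KO at 4 h. Uncalled ratios that crossed 0 ran, for Pcsk2, from -0.107 to 0.037 unstimulated, -0.201 to 0.161 at 1 h, -0.142 to 0.11 at 4 h, -0.159 to 0.172 at 24 h and -0.061 to 0.029 in the mean, with changes of -0.166 to 0.196 at 1 h, -0.107 to 0.144 at 4 h and -0.124 to 0.207 at 24 h and responses of -0.105 to 0.271 at 1 h in WT and -0.145 to 0.157 at 24 h in KO. For Pcsk4 they ran from -0.025 to 0.055 at 1 h, -0.033 to 0.079 at 4 h and -0.00853 to 0.019 in the mean. For Pcsk7 they ran from -0.072 to 0.112 unstimulated, -0.101 to 0.042 at 4 h and -0.118 to 0.087 at 24 h, with changes of -0.142 to 0.043 at 4 h and -0.138 to 0.067 at 24 h. For Mbtps1 they ran from -0.13 to 0.111 unstimulated and -0.015 to 0.00944 at 1 h, with changes of -0.114 to 0.127 at 1 h and -0.192 to 0.049 at 4 h.

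The methods' t-test gave 1694, 1754, 1128 and 1514 genes at its unadjusted threshold at the 4 times and 0 after Benjamini-Hochberg adjustment. With 2 replicates per group and replicate tied to dye, a dye effect within a genotype at a single time cannot be told apart from a difference between replicates, and spots of Pcsk2 and Pcsk4 lay near the background.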
